A study of Mus musculus with 2 samples.

Results

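The alpha and beta globin clusters were described by their open chromatin in blood progenitors of the mouse fetal liver, with and without Brd9. The members are 22 of the 29076 regions found by ATAC-seq, an assay that cuts and tags accessible DNA with a transposase. They are all regions that overlap or lie within 60 kb of Hba-x, Hba-a1, Hba-a2, Hbb-y, Hbb-bh1, Hbb-bs or Hbb-bt, 14 around the alpha genes on chromosome 11 and 8 around the beta genes on chromosome 7 (build mm10). A region is a stretch covered by a peak of the knockout list, the control list or both. The knockout library (replicate 2) came from CD45.2(+) Vav1-iCre Brd9fl/fl cells and the control library (replicate 1) from CD45.2(+) Brd9fl/fl cells, which carry the floxed alleles but no Cre. Both came from C57BL/6 fetal livers at E14.5, sorted as lineage-negative and c-Kit-positive, with 150000 cells per library. Vav1 regulatory DNA drives Cre in blood cells, and the floxed gene, Brd9, encodes a bromodomain protein of a BAF-type chromatin remodeller. The sources used here do not state the number of embryos.

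Haemoglobin is built from alpha-type and beta-type globin chains with haem. In the mouse, Hba-x, Hbb-y and Hbb-bh1 serve the first, embryonic red cells, while Hba-a1, Hba-a2, Hbb-bs and Hbb-bt serve the red cells made in the fetal liver and later in the bone marrow. Expression of each cluster depends on distant control elements. Those of the alpha cluster lie upstream, mostly in introns of the neighbouring housekeeping gene Nprl3, and are called R1, R2, R3, Rm and R4. Those of the beta cluster form the locus control region upstream of Hbb-y, within an array of olfactory receptor genes. Erythroid factors such as GATA1, KLF1, TAL1 and NF-E2 are known to bind these elements.

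The promoters of 3 adult globin genes are shown because the strongest globin region found in the control list alone lay on the first. The other 2 are a related copy and a gene with a near-identical twin, neither of which had a peak at its start. Each sequence runs 5′ to 3′ on the gene's strand, from 250 bases before the start site to 50 bases from it on (RefSeq, GRCm38.p6, with coordinates as in mm10). Capitals mark matches on either strand to short forms of known sites, which may overlap. GATAA stands for sites of GATA factors. CACCC stands for sites of KLF1 and its relatives, and CCAAT for sites of CCAAT-binding factors. TATAAA and the looser form ATAAAA stand for the TATA box, and the second of these had no match in the windows shown.
Hbb-bs, minus strand, chr7:103827879-103828178: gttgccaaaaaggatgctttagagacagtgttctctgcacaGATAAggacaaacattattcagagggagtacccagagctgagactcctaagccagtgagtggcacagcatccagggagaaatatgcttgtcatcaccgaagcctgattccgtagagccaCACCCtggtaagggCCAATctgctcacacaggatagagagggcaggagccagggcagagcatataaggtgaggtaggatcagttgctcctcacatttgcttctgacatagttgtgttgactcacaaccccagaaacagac
Hbb-bt, minus strand, chr7:103813874-103814173: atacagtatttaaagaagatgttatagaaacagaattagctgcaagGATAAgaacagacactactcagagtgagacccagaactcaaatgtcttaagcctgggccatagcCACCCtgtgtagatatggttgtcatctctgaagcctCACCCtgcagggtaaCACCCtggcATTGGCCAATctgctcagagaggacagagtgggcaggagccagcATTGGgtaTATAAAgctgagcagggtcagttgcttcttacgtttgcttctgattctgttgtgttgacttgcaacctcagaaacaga
Hba-a1, plus strand, chr11:32283422-32283721: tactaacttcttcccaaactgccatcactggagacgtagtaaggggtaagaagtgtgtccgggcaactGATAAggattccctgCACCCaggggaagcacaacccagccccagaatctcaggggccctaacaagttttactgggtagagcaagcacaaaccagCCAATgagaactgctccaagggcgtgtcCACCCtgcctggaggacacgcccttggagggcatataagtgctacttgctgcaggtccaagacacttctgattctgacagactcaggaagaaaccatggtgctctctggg

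Each of the 3 windows held 1 GATAA match, as did those of Hba-a2, Hba-x and Hbb-y, while 25.81% of 27025 promoter windows of the same length held at least 1. CACCC was found once in Hbb-bs and Hbb-y, at 2 places in Hba-a1, Hba-a2 and Hba-x and at 3 in Hbb-bt, and in 56.74% of all windows. CCAAT was found once in Hbb-bs, Hba-a1, Hba-a2 and Hbb-y, at 3 places in Hbb-bt and not in Hba-x (37.92% of all windows). TATAAA occurred in Hbb-bt and Hba-x (14.16% of all windows), and ATAAAA in Hbb-y (19.14%). These strings are narrow: the printed Hbb-bs and Hba-a1 windows hold catataag, which neither string matches. Lack of a match therefore does not show that a TATA box is absent. Among the broader motifs, CANNTG, the E-box that TAL1 binds with its partners, was present in Hbb-bs, Hbb-bt, Hba-a1, Hba-a2 and Hba-x (72.15% of all windows), and TGANTCA, the core of NF-E2 and AP-1 sites, in Hbb-bs (7.933%). A match of letters does not show that a factor binds there. The windows of Hba-a1 and Hba-a2 shared an unbroken identical run of 297 bases, shifted by 3 bases, so a read inside it fits both genes equally well. Hbb-bs and Hbb-bt were 72.7% identical in a global alignment, with no identical run longer than 14 bases.

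The knockout list held 22348 peaks and the control list 25330, with medians of 28 and 37 summit reads. Summit reads are the reads covering the highest point of a peak, recovered from the deposited values. By its lowest backgrounds the knockout library was sequenced to 0.640 of the control's depth. The region at one end of Brd9 had 151 and 217 summit reads in the knockout and the control, a scaled ratio of 1.09 (0.877 to 1.34). Where the loxP sites lie is not stated, so the region checks neither label. Genes of the sex chromosomes differed as well. The Y-linked genes Ddx3y and Uty had a region in the knockout list alone, with 33 and 18 reads. Of all regions with 30 to 39 and 15 to 19 knockout reads, 1.83% and 17.2% were in that list alone. Xist, which acts in X inactivation, had 33 knockout and 86 control reads (ratio 0.599, 0.388 to 0.905). Its second region, with 43 reads, was in the control list alone, as were 9.62% of regions with 40 to 59 control reads. Sex and genotype cannot be told apart in 1 library each. With 1 library per genotype no test was possible and no p-value is given. A scaled ratio is knockout over control summit reads, divided by 0.640, and its 95% interval covers counting error only, not differences between embryos. A region was called higher or lower in the knockout at a scaled ratio of at least 1.5 or at most 1/1.5.

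Of the 22 globin regions, 12 were shared by both lists, 5 were in the knockout list alone and 5 in the control list alone. All 5 knockout-only regions lay around the alpha genes, which had 6 shared and 3 control-only regions besides. The beta window had 6 shared and 2 control-only regions and no knockout-only region. Over all regions, 63.6% were shared, 13.0% were knockout-only and 23.4% control-only, so 22.7% knockout-only globin regions (exact interval 7.82 to 45.4) could not be told from that background. The shared regions of the clusters differed in median. At the alpha cluster the median log2 scaled ratio was 0.00, with 1 of 6 regions called higher and 0 lower; at the beta cluster it was −0.61, with 0 called higher and 3 of 6 lower. By the deposited fold values the medians were −0.04 and −0.25, and with equal numbers of top peaks, which left 2 alpha regions and 1 beta region, −0.16 and −0.14. Across the genome, 18481 shared regions had a median of 0.00, with 9.09% called higher and 9.51% called lower. Most globin regions lie away from gene ends and are of moderate height, and shared regions of that kind (15 to 120 reads averaged over the libraries at equal depth) had a median of −0.06, with 13.4% called higher and 16.6% lower. In that class, 9.48% of regions had an interval wholly below 1 and 5.36% wholly above it. Of the 12 globin regions, 1 beta region did the first and 1 alpha region the second. The alpha region lies within 1 kb of a gene end, outside that class. Of all shared gene-end regions, 8.85% had an interval above 1.

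**Figure D1:**
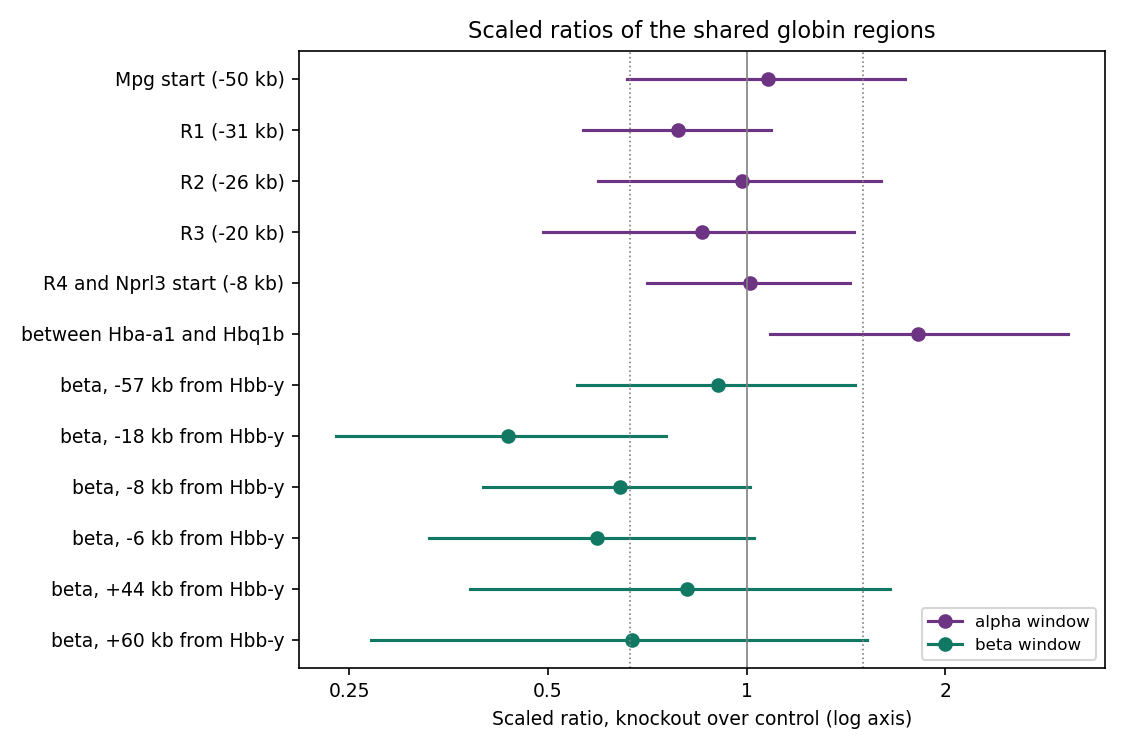
Scaled ratio of knockout over control summit reads (log axis) for the 12 shared globin regions, with 95% intervals for counting error; dotted lines mark the fold of 1.5 in either direction. All 6 beta regions lie below 1, from 0.435 to 0.906, while the alpha regions lie on both sides of 1, from 0.788 to 1.82.

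Each gene's own start was examined first. Of the 6 listed genes with a mapped start site, only Hbb-bs had a peak over it, and only in the control list. Over all 17492 coding genes with a mapped start, 45.9% had it under a knockout peak and 47.8% under a control peak. The region on Hbb-bs, which encodes an adult beta chain (chr7:103827446-103828175), had no knockout peak and 50 control summit reads (37.1 to 65.9). Its summit stood 54 bases upstream of the start site, at position 197 of the sequence printed above, and the control peak covered 297 of the 300 bases printed. At equal signal 32.0 reads would have been found in the knockout. Knockout peaks with a local background within 10% of the value this implies, 2.09 reads, had as few as 8 summit reads, and 5% of them had 11 or fewer. Of the 2820 control regions with reads within 20% of 50, 9.43% were control-only. Among the 2131 of these at least as wide (730 bp) the share was 4.08%, and among the 2629 with a local background about as high, 9.43%. The nearest knockout peak to the start site lay 18338 bp away. How many reads the knockout had at a site with no listed peak is not given by the lists, so no ratio can be formed.

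The other starts lay outside peaks in both lists. Hbb-bt, the second adult beta gene, had its nearest peak 4333 bp from the start site in the knockout and 4294 bp in the control. For the embryonic gene Hbb-y these distances were 5786 bp in both lists, and Hbb-bh1, also embryonic, lay 13463 bp from the nearest region. The neighbouring Hbb-bh2 and the pseudogene Hbb-bh3 were 10626 and 4453 bp from it; all 3 were nearest to the region on Hbb-bs. Hba-x, the embryonic alpha-type gene, was 7370 bp from a knockout peak and 7129 bp from a control peak. Hba-a1 was 1407 bp from a knockout peak and 1572 bp from a control peak, and Hba-a2 3720 bp and 10620 bp. For Hba-a1 and Hba-a2 the absence of a peak is hard to read, since reads from their starts fit both copies and their treatment by the aligner and later filters is not stated.

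**Figure D2:**
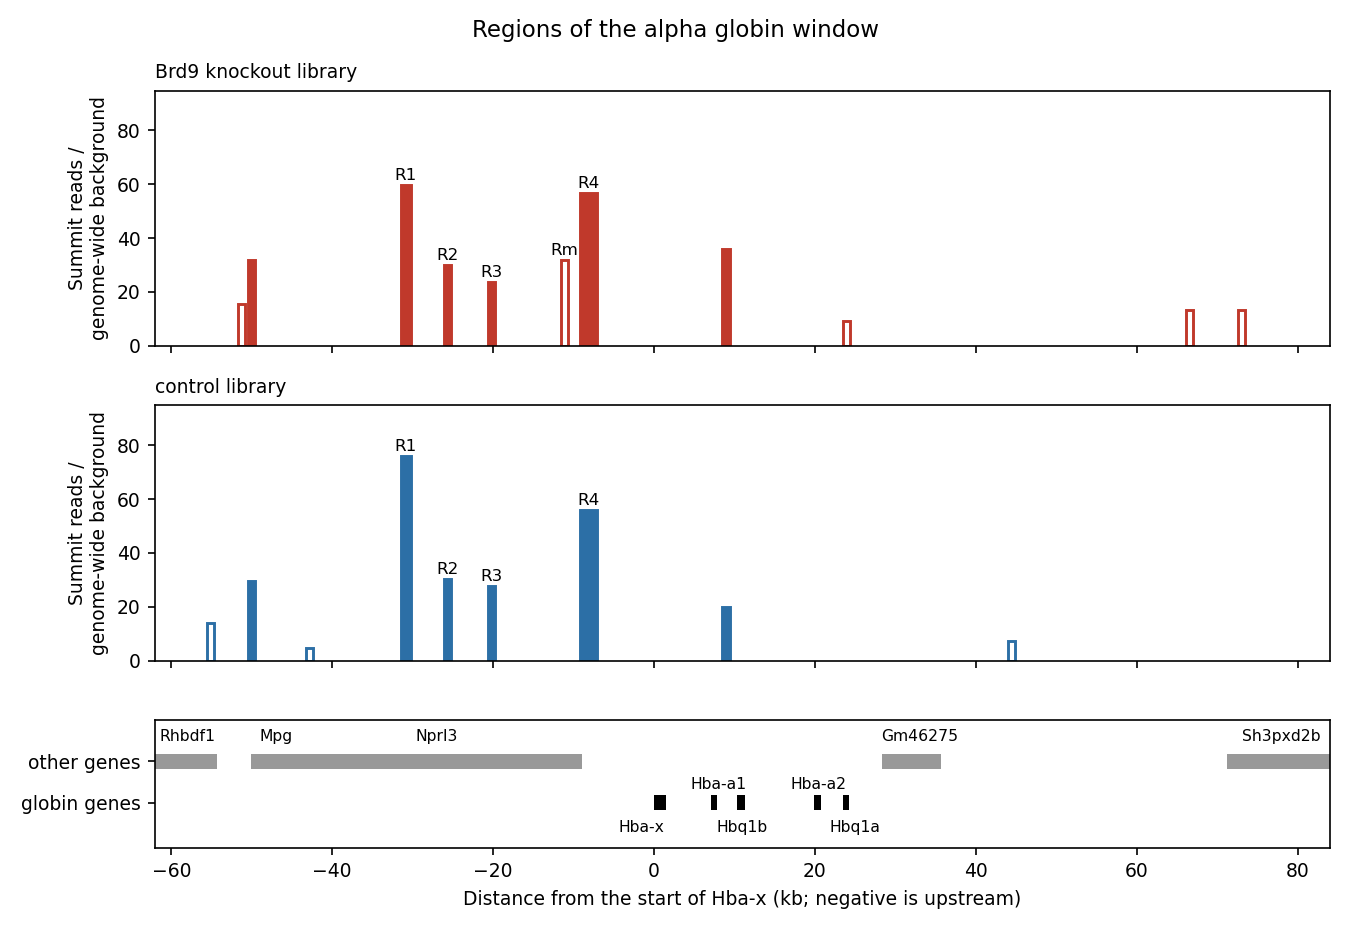
Summit reads divided by the genome-wide background of the library, for the regions of the alpha window, by distance from the start of Hba-x in kb; knockout above, control below. Filled bars are shared regions and open bars are in that list alone; bars are at least 0.9 kb wide so that they can be seen, and the lower strip shows genes to scale. R1 stands at 59.7 times background in the knockout and 75.9 times in the control, and Rm in the knockout panel alone.

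Upstream of the alpha genes, regions at the distances of the known control elements R1, R2 and R3, and a region covering that of R4, were present in both lists. Regions were given these names by their distance from Hba-x, which is known to be about 31, 26, 21, 12 and 8 kb for R1, R2, R3, Rm and R4. R1, inside Nprl3 30.9 kb upstream (chr11:32245121-32246349), was the highest globin region in both libraries, with 58 knockout reads (44.0 to 75.0) and 115 control reads (94.9 to 138). Its scaled ratio was 0.788 (0.564 to 1.09), and the summits of the libraries lay 1 bp apart. R2, the strongest enhancer of the mouse cluster in published deletions together with R1, had 29 knockout and 46 control reads (25.7 kb upstream; chr11:32250496-32251391), a ratio of 0.985 (0.596 to 1.60). R3 had 23 knockout and 42 control reads (20.2 kb upstream; chr11:32255971-32256749), a ratio of 0.855 (0.491 to 1.45).

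The region named R4 was the widest of all, at 2118 bp (chr11:32267354-32269471), and also held the start of Nprl3, which encodes a subunit of an inhibitor complex of mTORC1 signalling. Its summits lay 9.02 kb upstream of Hba-x in the knockout and 8.97 kb in the control. This is at the Nprl3 start rather than at the distance of R4. The summit reads are therefore those at the Nprl3 start and give no count for R4 itself. There were 55 knockout and 85 control reads, a ratio of 1.01 (0.706 to 1.44). For none of these 4 regions did the interval leave out 1. Together, with the reads at the Nprl3 start standing in for R4, they had 165 knockout and 288 control reads, a ratio of 0.895 (0.734 to 1.09). Their order by reads was R1, the R4 region, R2 and R3 in both libraries. Counting intervals of R1 and the R4 region overlapped in each library, as did those of R2 and R3. Peaks at R1, R2 and R3 were narrower in the knockout, with 845, 473 and 474 bp against 1229, 896 and 779 bp in the control. Over all shared regions, 70.4% had the narrower peak in the knockout, the library of lower depth, as did 8 of the 12 globin regions.

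Rm, an element known from the mouse cluster, was in the knockout list alone, 11.1 kb upstream of Hba-x inside Nprl3 (chr11:32265202-32265734). It had 31 knockout summit reads (21.1 to 44.0) over a high local background of 7.28 reads. Equal signal would have given 48.4 reads in the control over a local background of 11.4. Control peaks near that background had at least 25 reads, and 5% of them had 44.4 or fewer. Of all 2763 knockout regions with reads within 20% of 31, 2.71% were knockout-only. Among the 2631 of these at least as wide the share was 1.06%, and among the 134 with a local background about as high, 17.2%.

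Within the cluster, the region between Hba-a1 and Hbq1b had the highest ratio of the 12 shared regions (chr11:32285079-32286107). It began 593 bp beyond the 3′ end of Hba-a1 and ended 857 bp before Hbq1b, a theta-type globin gene, and had 35 knockout reads (24.4 to 48.7) and 30 control reads (20.2 to 42.8). The scaled ratio was 1.82 (1.09 to 3.07); over all shared regions 7.41% had an interval above 1. Its summits lay 329 bp apart, and the knockout peak was 1029 bp wide against 629 bp in the control. Hbq1a, the second theta-type gene, had a region inside it in the knockout list alone (chr11:32300212-32300779), with 9 reads. Of all regions with 6 to 9 knockout reads, 69.4% were in that list alone. The start windows of Hbq1a and Hbq1b were 95.3% identical, with an identical run of 105 bases, so counts near these genes are uncertain as well. By the ratio of the deposited fold values, which divide each summit by its own local background, the region between Hba-a1 and Hbq1b stood at 1.29 and was not called.

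At the edges of the alpha window, the start of Mpg, a DNA repair glycosylase gene, had 31 knockout and 45 control reads (chr11:32226209-32226952), a ratio of 1.08 (0.658 to 1.74). The remaining regions were weak and in 1 list alone. In the knockout list these were a region 1013 bp from Mpg with 15 reads, 1 at 4256 bp from Sh3pxd2b, an adaptor protein gene, with 13 reads and 1 inside Sh3pxd2b with 13 reads. In the control list they were a region inside Rhbdf1 with 21 reads, 1 inside Nprl3 with 7 reads, the lowest number of reads in that list, and 1 at 8492 bp from the noncoding gene Gm46275 with 11 reads. Over all regions, 36.0% of those with 10 to 14 knockout reads and 17.2% of those with 15 to 19 were knockout-only. Of those with 6 to 9 control reads 84.9% were control-only, of those with 10 to 14 reads 69.0%, and of those with 20 to 29 reads 33.3%.

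**Figure D3:**
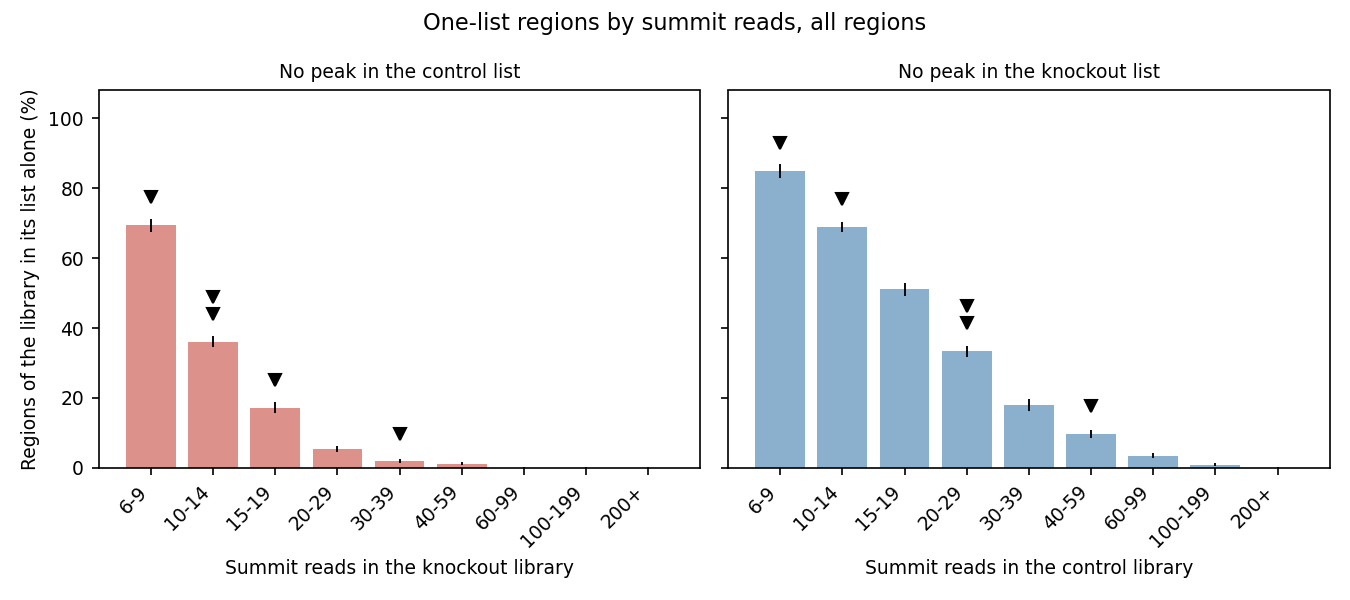
Share of all regions of a library with no peak in the other list, by summit reads, for the knockout list on the left and the control list on the right; bars are percentages with exact 95% intervals, and each triangle is 1 globin region in that list alone, placed over its class of reads. The triangles at 30 to 39 knockout reads (Rm; 1.83% of regions) and at 40 to 59 control reads (Hbb-bs; 9.62%) stand over the lowest bar that holds a triangle in their panel.

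Around the beta genes every shared region had fewer reads in the knockout than the relative depth gives. The 3 called lower lay 6.25, 7.96 and 17.7 kb upstream of Hbb-y, the side of the locus control region. The nearest of them (chr7:103858993-103859930) had 19 knockout reads (11.4 to 29.7) and 50 control reads (37.1 to 65.9), a scaled ratio of 0.593 (0.330 to 1.02). The next (chr7:103860633-103861692) had 28 knockout and 68 control reads, a ratio of 0.643 (0.399 to 1.01), with summits 5 bp apart. The farthest of the group (chr7:103870414-103871496) had 17 knockout reads (9.90 to 27.2) and 61 control reads (46.7 to 78.4), a ratio of 0.435 (0.238 to 0.755). It was the 1 beta region whose interval left out 1, and had the lowest ratio of the 12 shared globin regions. Of all shared regions, 0.633% had a lower ratio and 8.47% had an interval below 1. Shared regions away from gene ends with 15 to 120 reads spread more widely. Their log2 ratios had an SD of 0.57, against 0.46 over all shared regions, and the rank within them was not taken.

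**Figure D4:**
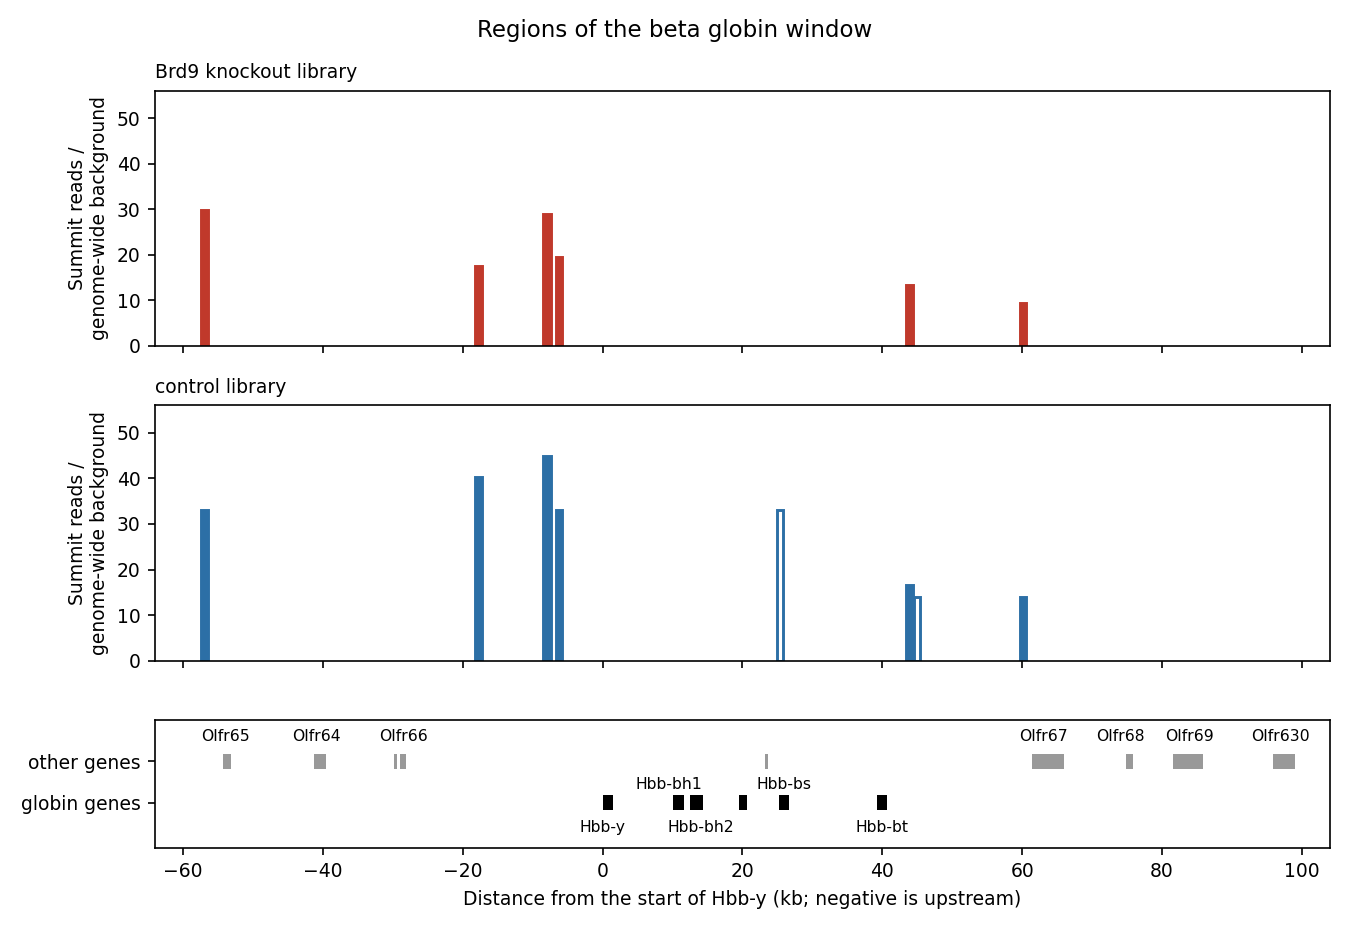
Summit reads divided by the genome-wide background of the library, for the regions of the beta window, by distance from the start of Hbb-y in kb, read in the direction of the genes; knockout above, control below, with filled bars for shared and open bars for control-only regions, drawn at least 0.9 kb wide. The region 17.7 kb upstream stands at 17.5 times background in the knockout and 40.2 times in the control, and the taller open bar is the region over the start of Hbb-bs.

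Farther out the difference was smaller or counts were low. The region 57.0 kb upstream of Hbb-y, 2256 bp from the olfactory receptor gene Olfr65 (chr7:103909703-103910711), had 29 knockout and 50 control reads, a ratio of 0.906 (0.553 to 1.46), and was the highest beta region of the knockout library. Beyond the other end of the cluster, 2895 bp downstream of Hbb-bt, a region (chr7:103809023-103809629) had 13 knockout and 25 control reads, a ratio of 0.812 (0.382 to 1.65). Next to it, a region 4057 bp from Hbb-bt had 21 control reads and no knockout peak. Of the 3711 control regions with reads within 20% of 21, 41.2% were control-only. Among the 210 of these with a local background about as high, the share was 58.1%. The last one, 1041 bp from Olfr67 (chr7:103792871-103793323), had 9 knockout and 21 control reads; its ratio of 0.669 (0.270 to 1.52) fell just short of the fold of 1.5, while 0.643 was the called ratio nearest to it. It passed the fold at 0.662 when scaled by gene-end regions and at 0.580 by the deposited fold values. In the control the order by reads began with the regions 7.96 and 17.7 kb upstream, and in the knockout with those 57.0 and 7.96 kb upstream, though the counting intervals of these neighbours overlapped.

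The local background of each peak was compared as well. This background, the mean of reads that the peak caller expects from the surroundings, was recovered with each peak and includes the peak's own reads, so it is not independent of the summit. Scaled to equal depth, the knockout background was 0.653, 0.649 and 0.577 times the control's at the 3 regions upstream of Hbb-y and 0.620 times at the shared region next to Hbb-bt. It was 0.906 times at the region 57.0 kb upstream and equal at that near Olfr67, where each library was at its lowest background. At the alpha cluster it was 1.20 at Mpg, 0.736 at R1, 0.791 at R2, 0.878 at R3, 0.991 at R4 and 1.38 between Hba-a1 and Hbq1b. The median over all shared regions was 0.938. Deposited fold values are taken against this local background. Their ratio at the 3 upstream regions was nearer to 1, at 0.806, 0.882 and 0.620, so that only the farthest of them was still called lower. At the shared region next to Hbb-bt it was 1.10, on the other side of 1, at the region 57.0 kb upstream 0.890, and at that near Olfr67 0.580, the lowest of the 12 shared regions and called lower.

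**Figure D5:**
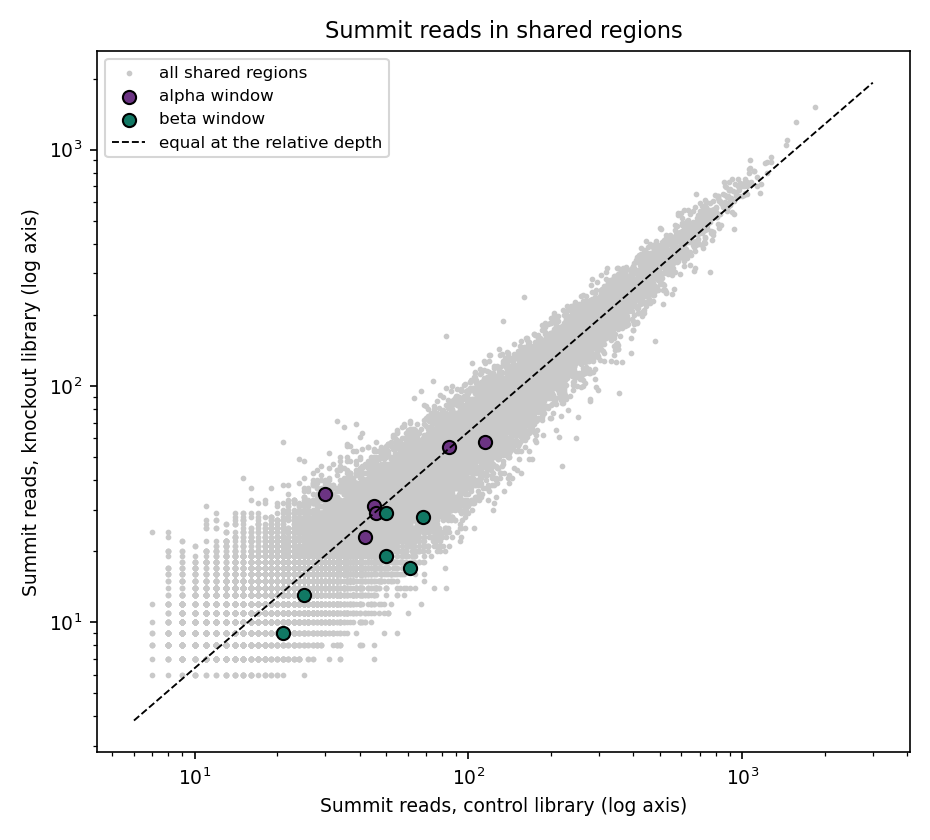
Summit reads of all 18481 shared regions in the knockout library (vertical, log axis) against the control library (horizontal, log axis), with the 6 alpha and 6 beta regions in colour; the dashed line marks equal signal at the relative depth of 0.640. The beta regions lie below the line, the farthest below it at 17 knockout and 61 control reads.

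The beta and alpha clusters were then set against each other, which needs no estimate of depth. The 6 shared beta regions had 115 knockout and 275 control reads, a scaled ratio of 0.653 (0.521 to 0.815), and the 6 shared alpha regions 231 and 363 reads, a ratio of 0.994 (0.839 to 1.18). The beta ratio was 0.657 times the alpha ratio (exact conditional interval 0.495 to 0.871). The alpha sum is mixed. It holds regions at the starts of Mpg and Nprl3 and the region between Hba-a1 and Hbq1b, with ratios of 1.08, 1.01 and 1.82. Counts at the last of these are uncertain. R1, R2 and R3 had 0.788, 0.985 and 0.855, while no shared beta region held a gene start. A contrast of beta with R1 to R3 alone was not made, so whether its interval would leave out 1 is not known. By deposited fold values the cluster medians lay nearer to each other, at log2 −0.25 for beta and −0.04 for alpha. The 3 regions upstream of Hbb-y had 64 knockout and 179 control reads, a ratio of 0.558. They were chosen after their values were seen and are the 3 called lower, so a low ratio follows from the choice. No interval or contrast is drawn from it. The intervals for the clusters treat regions of a cluster as 1 sum and cover counting error in these 2 libraries only. They are too narrow to measure how far the clusters differ between embryos. Log2 ratios of single shared regions had an SD of 0.46 over the whole set, and how far regions of 1 locus vary together between libraries was not measured.

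Markers of the sorted cells and of other cell types stood as follows at gene ends, taken as within 1 kb of either end; where a gene had 2 such regions, the shared one with more reads was used. In these bulk libraries, fewer cells of a type and less open chromatin per cell cannot be told apart. Of 7 erythroid markers, 4 had a shared region with ratios from 0.834 (Epor, the erythropoietin receptor gene; 0.698 to 0.994) to 1.03 (Ermap; 0.792 to 1.33), a median of 0.922 and summed reads of 460 in the knockout and 795 in the control. Slc4a1, the band 3 anion exchanger gene, had 62 control reads and no knockout peak, as did 3.42% of all regions with 60 to 99 control reads, and Gata1 and Alas2, the erythroid enzyme of haem synthesis, lacked a gene-end peak in both lists. Kit, the receptor of the sort gate, had 65 knockout and 109 control reads (ratio 0.931, 0.674 to 1.28), and stem and progenitor markers had shared regions in 3 of 5 genes with ratios from 0.781 to 1.05. Of granulocyte and monocyte markers, 3 of 6 were shared, with ratios from 1.03 to 1.98 and sums of 122 knockout and 129 control reads. The myeloid factor genes Cebpa (1.56, 1.05 to 2.31) and Spi1 (1.98, 1.19 to 3.31) were called higher. Of all shared gene-end regions, 6.16% were called higher and 8.85% had an interval above 1. The second regions of Ermap and of the granulocyte enzyme gene Mpo had lower ratios than those used, 0.589 (0.434 to 0.792) and 0.694 (0.388 to 1.20). Megakaryocyte markers were shared in 2 of 4, with ratios of 1.04 for Gp9 and 1.75 (0.859 to 3.57) for Pf4, which was called higher. Itga2b, with 36 reads, was in the knockout list alone, as were 1.83% of regions with 30 to 39 knockout reads. None of the 4 B lymphoid, 4 T lymphoid or 4 macrophage markers was shared. Ebf1 with 33 reads and Cd4 with 9 were in the control list alone. So were 17.9% of regions with 30 to 39 control reads and 84.9% of those with 6 to 9. Of 5 hepatocyte markers, Apoa1 and Apoa2 were shared, with ratios of 1.14 and 1.21, and Alb, Afp and Ttr lacked one in both lists. The part that the mix of cells has in the lower beta counts was not tested.

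Genes for globin regulators and helpers were examined at their ends in the same way; Klf1, Gata1 and Alas2 are also among the erythroid markers and Myb among those of progenitors. Of 18 such genes in the gene table, 15 had a shared region, 8 with a ratio below 1 and 7 above, with a median log2 ratio of −0.01 against 0.01 over all 10552 shared gene-end regions. Tal1, a founding factor of blood development (61 knockout and 214 control reads; ratio 0.445, 0.329 to 0.594), and Lmo2, its bridging partner (20 and 62; 0.504, 0.288 to 0.846), were called lower and none higher. Of all shared gene-end regions, 5.57% were called lower and 6.16% higher, and 7.47% had an interval below 1. Tal1 and Lmo2 each had a second, control-only region, with 13 and 15 reads. Genes for 4 factors had intervals above 1, as did 8.85% of shared gene-end regions, without reaching the fold of 1.5. These were Zfpm1, which encodes the GATA1 partner FOG1, at 1.18 (1.07 to 1.29), Lyl1, a relative of Tal1, at 1.32 (1.12 to 1.55), Nfe2, the NF-E2 subunit of blood cells, at 1.19 (1.02 to 1.38), and Zbtb7a, a repressor of fetal globin genes in human cells, at 1.16 (1.02 to 1.30). The second regions of Lyl1 and Nfe2 had ratios of 1.11 (0.804 to 1.53) and 0.781 (0.473 to 1.26). Klf1, the activator of adult beta globin, had 110 knockout and 183 control reads (0.939, 0.734 to 1.20), and Bcl11a, a globin-switching repressor, 73 and 115 (0.991, 0.729 to 1.34). Ctcf, which encodes the insulator protein, had a ratio of 0.996 (0.641 to 1.53), while Ldb1, the looping factor, lacked a peak at its ends in both lists.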

How the data were processed

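ATAC-seq peak lists of 1 knockout and 1 control library were used. The submitters' processing notes name MACS2 2.2.7.1, Bowtie2 2.4.4, Trimmomatic 0.39, deepTools 3.5.1, Picard 2.26.2 and build mm10, without roles or settings. The treatment of duplicates, multi-mapping reads and blacklists, and any read shift, are not stated. The deposited score was not used, and the deposited −log10 q-value served only to filter peaks in the alternatives. The deposited fold is the ratio of summit pileup to local background, each plus 1, and the deposited −log10 p-value compares the same numbers. All are values the authors deposited, in lists called per sample.

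Both were solved for a whole-number pileup (summit reads), found for 100.0% of peaks within a relative misfit of 7.31e-06 or less; on simulated peaks 100.0% of 1999 knockout and 1995 control values were recovered. Relative depth is the ratio of the lowest backgrounds, 0.971 reads in the knockout and 1.52 in the control list; absolute depth is unknown. Peaks were merged by an overlap of 1 bp, with the strongest peak of each list used. Peaks above 3000 reads, 5 in each list, were left out of ratios. Intervals are exact 95% intervals (Poisson for reads, conditional binomial for ratios, Clopper-Pearson for shares, conditional odds ratio for clusters), covering counting error only. Genes and promoters came from RefSeq (GRCm38.p6); promoter windows were found for 6 of the 7 member genes, and Ahsp was not matched in the gene table. Alignments scored 1 per match, −1 per mismatch, −2 to open and −0.5 to extend a gap. Every region of both windows is reported, and genes outside them come from lists of globin regulators and cell markers. One marker of the erythroid list is not reported here. Members, lists, the class of like reads and other choices were made with earlier results of these data known. Biopython 1.88, matplotlib 3.10.9, pandas 2.3.3, SciPy 1.17.1 and NumPy 2.4.6 were run under Python 3.11.15.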

Additional observations from a re-analysis of the deposited data

How the results depend on the processing

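With peaks of a −log10 q of at least 5, 3 regions were knockout-only. With the 11174 top peaks of each list, 3 globin regions were shared (1 of them at the beta cluster) and 2 knockout-only, and 0 were called higher and 0 lower. Windows of 30 kb left 2 knockout-only and 3 control-only regions. By deposited folds 0 regions were called higher and 2 lower, the region 17.7 kb upstream of Hbb-y and that near Olfr67, which was not called by summit reads; at a fold of 2, 0 higher and 1 lower. The beta median log2 ratio lay at −0.25 by deposited folds and at −0.14 with top peaks, and from −0.69 to −0.60 under the other settings; the alpha median was −0.04, −0.16 and from −0.02 to 0.00 in the same order. Thus with top peaks the beta median was not below the alpha median. That beta value is the 1 region 57.0 kb upstream of Hbb-y, and none of the regions called lower was kept as shared. Windows of 100 kb, sharing at 50% of the shorter peak and scaling by the median ratio of all or of gene-end shared regions moved no count by over 1.5 times; gene-end scaling called 4 regions lower. The spread between libraries of 1 genotype was not measured, and regions under about 10 reads are near the detection limit. Where the local background is high, regions with more reads can be near it as well. Control peaks near the background of Rm had at least 25 reads. No paired analysis was possible because each genotype has 1 library and the labels number them 2 and 1. Leaving out a replicate was not possible for the same reason.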

Other observations

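The beta window is an island of open chromatin in these lists. The nearest region beyond it lay 1125 kb from the globin genes on the Hbb-bt side (37 knockout and 80 control reads, scaled ratio 0.722) and 250.8 kb on the Hbb-y side (10 and 17 reads, ratio 0.919). None of the 944 olfactory receptor genes with a mapped start had it under a peak in the knockout or the control list. Beyond the alpha window, the region 70.9 kb from Hba-x at the ends of Il9r and Snrnp25 had 153 knockout and 255 control reads, a ratio of 0.937, and the nearest one on the Hba-a2 side, at 111.5 kb, was in the knockout list alone with 8 reads.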
